A study of Aedes aegypti with 7 samples.

Results

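AGO1 CLIP-seq and small RNA sequencing of the same tissue at the same time were set against each other, miRNA by miRNA, to show which miRNAs were over- or under-represented on AGO1 relative to their abundance. The tissue was the fat body, the insect organ that makes yolk proteins, from adult females of the mosquito Aedes aegypti (UGAL/Rockefeller strain), collected 24 h after a blood meal (24 h PBM), when yolk protein synthesis is high. The 24 h PBM AGO1 CLIP-seq sample and the 24 h PBM small RNA sample are 2 of the 7 samples of the study, with 3 libraries each, 6 of 21 libraries in all. The same pair of assays at 72 h post eclosion (72 h PE, before blood, females 3 or 4 days old) served to ask whether a ratio was the same before the meal. In CLIP-seq the sliced tissue received 900 mJ/cm2 of ultraviolet light, which links proteins to the RNA they touch, and AGO1 was precipitated with an antibody. Small RNA libraries were made from TRIZOL-extracted total RNA, with no selection for AGO1. Binding to AGO1 therefore cannot be told apart here from other differences between the assays, such as ultraviolet linking, precipitation and how reads were counted. Higher or lower on AGO1 below means a difference between the shares of the 2 assays. That the 3 libraries of a group are biological replicates rests on the submitters' design text alone. No line, allele or agent other than the blood meal is named for any group, and dissected fat body holds other cells besides fat cells.

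A miRNA gene is transcribed as a hairpin precursor, which is cut to a duplex of a 5p and a 3p strand; usually one strand is kept by an Argonaute protein as a guide and the other is discarded. AGO1 is the Argonaute that carries miRNAs to messenger RNAs in insects. In Drosophila melanogaster, duplexes are sorted between AGO1 and AGO2 by their structure and first base, and miR-277 is known there as a miRNA that enters AGO2 in part. In the mosquito fat body, miR-8 is known to act on secretion of yolk protein, and miR-275 is required for blood digestion and egg development.

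The members were the 88 precursors of the deposited small RNA table, made by summing the 124 mature miRNAs over arms and named copies. For 75 of the 88, the CLIP-seq table held at least 1 of the 120 peaks annotated as a miRBase miRNA, among 100836 peaks in all. The other 13 precursors entered with 0 CLIP counts. At 24 h PBM, 71 precursors had a CLIP count and 17 had none. Each level below is a precursor's share of all miRNA counts of its library, in percent. Mature miRNAs are all of similar length, and the shares are not scaled by it.

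The miRNA counts behind the shares were 20746 to 29398 per AGO1 CLIP library and 3053781 to 5266385 per small RNA library, so the precision of low shares is set by CLIP-seq. Of all CLIP counts at 24 h PBM, 22.1%, 22.9% and 26.3% lay on miRNA peaks. That mean of 23.8% ± 2.23 at 24 h PBM stood against 21.2% ± 4.05 at 72 h PE (SD, n = 3 each; two-sided exact permutation p = 0.4, where 3 against 3 cannot give less than 0.1). As a check of tissue and time, the peaks of vitellogenin-A1 (AAEL010434), the main yolk protein precursor, held 1931, 2394 and 1723 CLIP counts at 24 h PBM, against 30, 71 and 90 at 72 h PE. All 3 libraries at 24 h PBM were above all 3 at 72 h PE.

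The AGO1 CLIP counts were a more even mix of miRNAs than the small RNA reads, and miR-8 had the largest gap in percentage points. This miRNA, known in Drosophila to promote body growth through the fat body, took 10.4%, 11.9% and 11.1% of AGO1 miRNA counts, against 57.1%, 57.9% and 56.8% of small RNA miRNA reads. The means were 11.1% ± 0.765 on AGO1 and 57.3% ± 0.537 in small RNA (SD, n = 3 each; two-sided exact permutation p = 0.1, the smallest this design allows). The effective number of miRNAs, the exponential of the Shannon entropy of the shares, was 20.5 ± 1.49 on AGO1 and 7.06 ± 0.152 in small RNA, again without overlap (exact p = 0.1). The 10 most abundant precursors held 74.1% ± 1.62 of AGO1 counts and 88.9% ± 0.202 of small RNA reads (exact p = 0.1). Only 4 precursors were in the top 10 of both assays.

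Because miR-8 held 57.3% of one assay and 11.1% of the other, the shares of all other miRNAs move with how the libraries are scaled. Each precursor was therefore tested under 4 scalings, namely plain shares, TMM, totals without miR-8, and the size factors of DESeq2. On plain shares, edgeR's quasi-likelihood test called 69 of the 79 precursors tested (87.3%) at an adjusted p of 0.05, with 40 higher on AGO1 (50.6%) and 29 lower (36.7%). The median log2 ratio of AGO1 share to small RNA share over the 79 was 0.87; TMM moved it by -1.52 and leaving out miR-8 by -1.06. The split of higher against lower was accordingly 29 to 38 with TMM, 30 to 34 without miR-8 and 29 to 43 with DESeq2. The 10 tested precursors with no AGO1 count entered through their small RNA reads alone, so the direction of the 9 lower calls among them was fixed by the filter. In the other direction, miR-965, miR-124, miR-1175, miR-210 and miR-927 would not have passed the filter without their AGO1 libraries. The filter thus favoured their higher calls. Among the 42 precursors whose small RNA share predicts at least 10 counts in every AGO1 library, 20 were higher and 18 lower. The call was the same under all 4 scalings for 58 precursors, 29 higher on AGO1 (36.7%) and 29 lower (36.7%). DESeq2's size factors also moved the median down, by -1.68. With every alternative lowering the ratios, lower calls were bound to keep their direction, so this agreement tests only the higher calls. Another 19 changed their call with the scaling and 2 were called under none. The 6 libraries separated by assay without overlap for 70 of the 79 (88.6%).

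**Figure D1:**
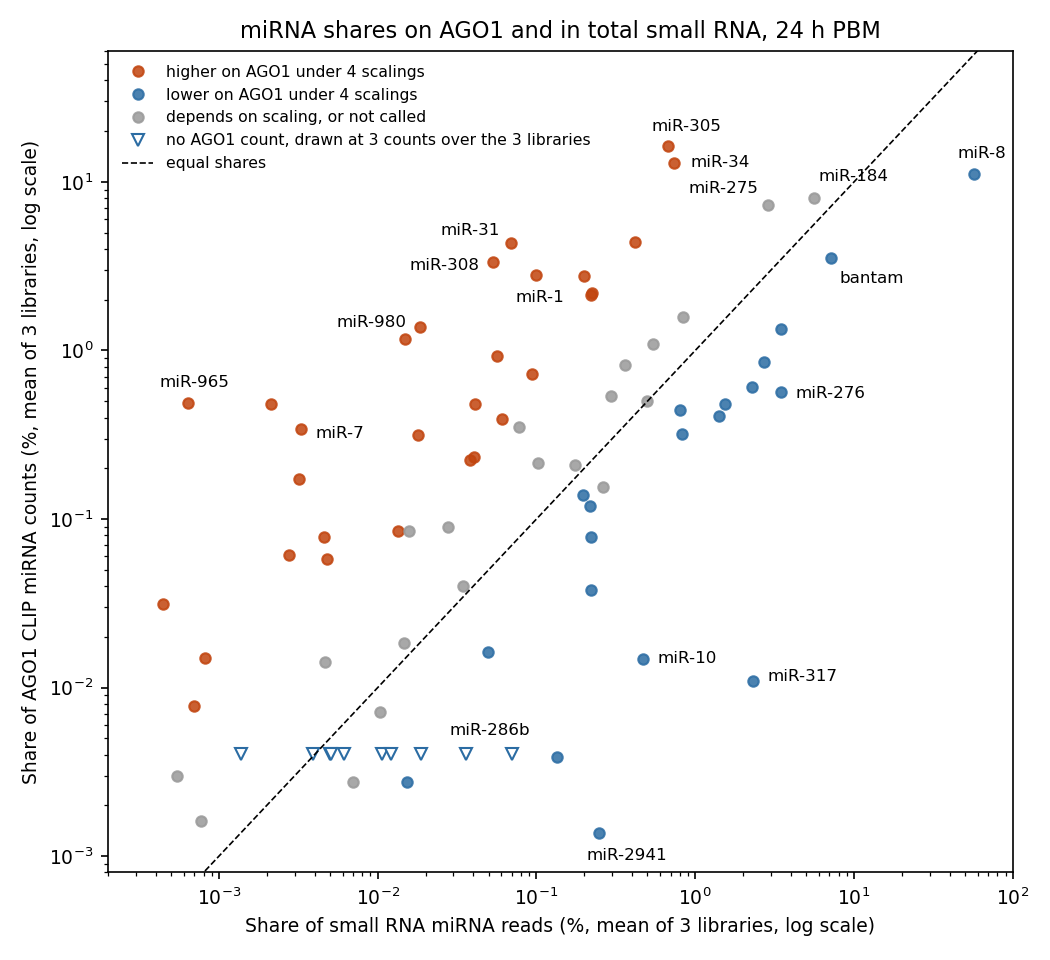
Each point is a precursor at 24 h PBM, placed by its mean share of small RNA miRNA reads (x axis, %, log scale) and of AGO1 CLIP miRNA counts (y axis, %, log scale), over 3 libraries each; open triangles are the 10 tested precursors with no AGO1 count, drawn at 3 counts over the 3 libraries. miR-305 and miR-34 lie far above the dashed line of equal shares, and miR-8, miR-276, miR-10 and miR-317 below it.

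The largest part of the AGO1 counts belonged to miRNAs that are minor in total small RNA. miR-305, which in Drosophila acts in the gut's stem cells and in nutrient response, ranked first on AGO1. It took 14.1%, 17.5% and 17.5% of AGO1 counts, against 0.666%, 0.680% and 0.671% of small RNA reads. All 3 AGO1 libraries were above 14%, and all 3 small RNA libraries were below 1%. The AGO1 share was 24.4-fold higher (log2 ratio 4.61 ± 0.12 SE, edgeR adjusted p = 4.76e-08). miR-34, linked to ageing in Drosophila, ranked second with 13.0%, 12.6% and 13.2% on AGO1, against 0.927%, 0.566% and 0.700% in small RNA. Its AGO1 share was 17.6-fold higher (log2 ratio 4.14 ± 0.20 SE, edgeR adjusted p = 1.24e-06). Counts of 4140, 3635 and 4242 for miR-305 and 3809, 2609 and 3184 for miR-34 stand behind these AGO1 shares. Both calls held under all 4 scalings.

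miR-31, a regulator of embryonic patterning in Drosophila, averaged 4.33% ± 0.185 on AGO1 and 0.0694% ± 0.00482 in small RNA (SD, n = 3 each). Its AGO1 share was 62.4-fold higher (log2 ratio 5.96 ± 0.13 SE, edgeR adjusted p = 3.47e-08). miR-252 averaged 4.41% ± 0.323 on AGO1 and 0.415% ± 0.0337 in small RNA, 10.6-fold higher. miR-308, which shares the K-box seed of the miR-2 family, averaged 3.36% ± 0.445 on AGO1 and 0.0532% ± 0.00404 in small RNA, 63.1-fold higher. These miRNAs too kept their call under all 4 scalings, and none of their AGO1 libraries overlapped a small RNA library.

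miR-184 and miR-275 were abundant in both assays, and whether they count as over-represented rests on the scaling. miR-275 took 7.45%, 7.5% and 6.86% of AGO1 counts, against 3.20%, 2.61% and 2.83% of small RNA reads, a log2 ratio of 1.34 ± 0.11 SE on plain shares (edgeR adjusted p = 1.94e-05). Its ratio was 0.28 with miR-8 left out of the totals (edgeR adjusted p = 0.0524) and -0.16 with TMM (adjusted p = 0.355). miR-184, which acts in oogenesis in Drosophila, took 7.32%, 8.82% and 7.91% of AGO1 counts, against 4.53%, 5.11% and 7.22% of small RNA reads. The AGO1 libraries lay above the small RNA libraries, the closest pair being 7.32% and 7.22%. Its log2 ratio was 0.51 ± 0.18 SE on plain shares (edgeR adjusted p = 0.0337), and it turned to -0.99 with TMM and -0.54 with miR-8 left out. The call was lost when any 1 of the AGO1 libraries was left out (adjusted p 0.0603 to 0.108).

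**Figure D2:**
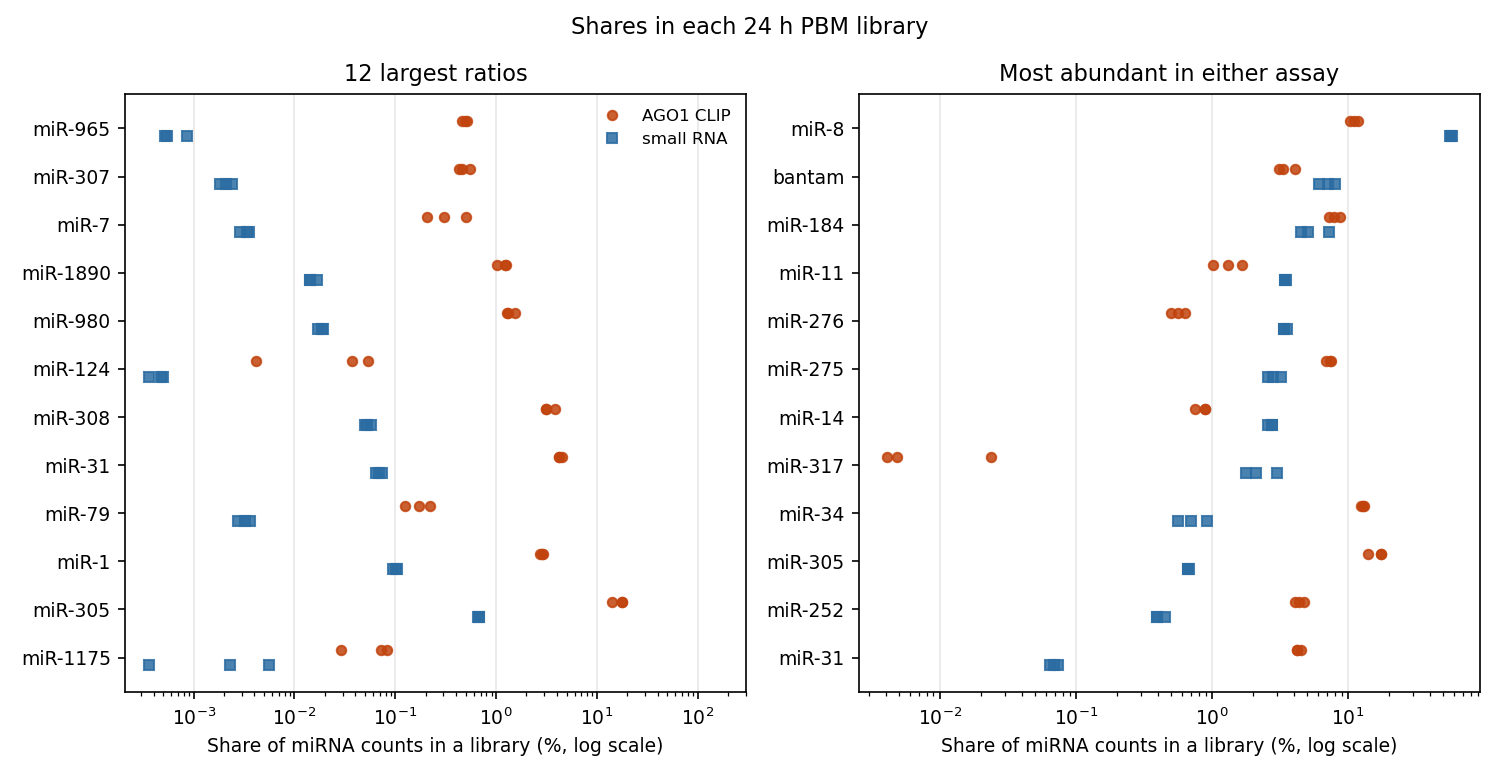
Share of miRNA counts in each 24 h PBM library (x axis, %, log scale; circles AGO1 CLIP, squares small RNA) for the 12 miRNAs with the largest ratios (left) and for those most abundant in either assay (right). The AGO1 circles of miR-305, miR-34 and miR-31 lie right of their small RNA squares, and those of miR-8, bantam, miR-276 and miR-317 lie left of them.

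The largest ratios belonged to miRNAs that were scarce in total small RNA. miR-965, which acts in the abdominal histoblasts of Drosophila, had 150, 95 and 118 AGO1 CLIP counts, against 21, 45 and 16 small RNA reads. As shares, these were 0.485% ± 0.0262 on AGO1 and 0.000640% ± 0.000186 in small RNA (SD, n = 3 each), a log2 ratio of 9.53 ± 0.30 SE (edgeR adjusted p = 6.73e-08). In absolute counts miR-965 was thus seen more often on AGO1 than among the far more numerous small RNA reads. It would not have passed the filter on low counts without its AGO1 libraries. By contrast, miR-993, with 30, 59 and 15 small RNA reads and no AGO1 count, was not tested. Large ratios among miRNAs this scarce were thus favoured by the filter. miR-307 averaged 0.478% ± 0.0644 on AGO1 and 0.00212% ± 0.000298 in small RNA, a log2 ratio of 7.82 ± 0.24 SE. The AGO1 counts of miR-307 lay on 2 peaks, with 95, 58 and 54 on the 3p arm and 67, 31 and 56 on the 5p arm. In small RNA only 1 mature sequence was counted for it. miR-7, a stabilizer of cell fate decisions in Drosophila, took 0.507%, 0.207% and 0.306% on AGO1, against 0.00287%, 0.00340% and 0.00354% in small RNA, a log2 ratio of 6.71 ± 0.40 SE. Its first AGO1 library was the highest, and its lowest AGO1 library still stood far above every small RNA library.

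The mosquito miRNA miR-1890, known to target a serine protease of the Ae. aegypti midgut, averaged 1.17% ± 0.121 on AGO1 and 0.0149% ± 0.00140 in small RNA, a log2 ratio of 6.29 ± 0.20 SE. miR-980, which restrains memory in Drosophila, averaged 1.38% ± 0.150 on AGO1 and 0.0184% ± 0.00102 in small RNA (log2 ratio 6.23 ± 0.19 SE). miR-79 of the miR-9 family had 65, 36 and 30 AGO1 counts and a log2 ratio of 5.76 ± 0.34 SE. All 3 kept their call under the 4 scalings. The neural miRNA miR-124 had only 11, 11 and 1 AGO1 counts against 14, 25 and 15 small RNA reads (log2 ratio 6.12 ± 0.73 SE, edgeR adjusted p = 0.000202). The midgut miRNA miR-1175 had 21, 6 and 20 AGO1 counts against 89, 19 and 172 small RNA reads (log2 ratio 4.49 ± 1.03 SE, adjusted p = 0.00530), so both rest on few counts. Neither miR-124 nor miR-1175 would have passed the filter on low counts without its AGO1 libraries.

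**Figure D3:**
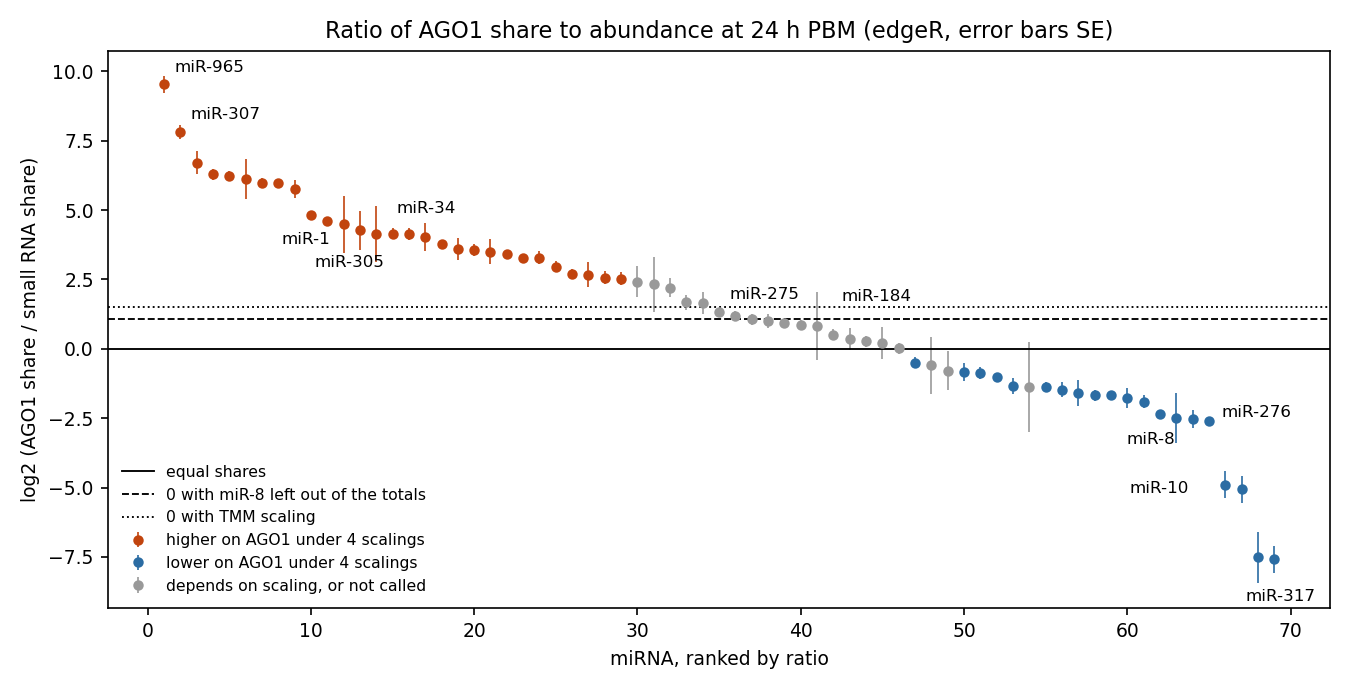
log2 ratio of AGO1 share to small RNA share at 24 h PBM (y axis; points with SE bars, edgeR) for the 69 tested precursors with an AGO1 count, ranked from highest to lowest (x axis). The dashed and dotted lines show where 0 falls with miR-8 left out or with TMM scaling, by the shift of the median; miR-275 lies between the 2 lines, miR-184 lies below both, and miR-965 to miR-34 lie far above them.

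Among miRNAs lower on AGO1, the abundant ones were miR-8 (log2 ratio -2.37 ± 0.08 SE), bantam, miR-11, miR-276, miR-14, miR-2940, miR-263a and miR-100. bantam, which drives growth and blocks cell death in Drosophila, took 4.12%, 3.33% and 3.10% of AGO1 counts, against 6.16%, 8.04% and 7.19% of small RNA reads (log2 ratio -1.02 ± 0.15 SE, edgeR adjusted p = 0.000623). miR-14, which limits fat storage in Drosophila, averaged 0.849% ± 0.0839 on AGO1 and 2.73% ± 0.101 in small RNA (log2 ratio -1.68 ± 0.12 SE). miR-11, a K-box miRNA that curbs cell death genes in Drosophila, averaged 1.34% ± 0.330 on AGO1 and 3.49% ± 0.0339 in small RNA (log2 ratio -1.38 ± 0.18 SE). The calls of these miRNAs were the same under all 4 scalings. That agreement lends them no weight, since the other scalings all lower the ratios. On the scale of plain shares bantam was 2.03-fold lower and miR-8 was 5.16-fold lower on AGO1.

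A further pair of miRNAs was nearly missing from the AGO1 peaks. miR-317 had 7, 1 and 1 AGO1 counts against 116439, 111680 and 54814 small RNA reads. Its small RNA share alone would have given about 1725 AGO1 counts over the 3 libraries. Pooled over libraries its share was 192-fold lower on AGO1, with a 95% counting interval of 101 to 364 (log2 ratio -7.59 ± 0.48 SE, edgeR adjusted p = 5.00e-06). The CLIP-seq table names miR-317 with a copy suffix and holds 1 peak for it. miR-10, encoded in the Hox cluster, had 9, 2 and 1 AGO1 counts against 15075, 29582 and 14055 small RNA reads, about 358 having been the number its share would give. Pooled, it was 29.8-fold lower, with an interval of 17.1 to 52.1, and its name carries no copy suffix. The first library held most of the counts of both miRNAs.

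Copies matter for the miRNAs that were low on AGO1, since how reads that fit several places were treated is not given in the sources used here. Of the 6 precursors with a copy suffix in the CLIP-seq table (miR-1891, miR-276, miR-2941, miR-317, miR-929 and miR-9a), 5 were called lower on AGO1, beside 36.7% of all tested. miR-2941, of the ovary and embryo list, had 0, 0 and 1 AGO1 counts against 5600, 10272 and 12224 small RNA reads. This is a pooled ratio of 171 with a counting interval of 30.2 to 970. miR-9a had 2, 1 and 0 AGO1 counts against 5009, 7137 and 4287 small RNA reads, a pooled ratio of 33.4 with an interval of 11.4 to 98.2. miR-276, which acts in the fat body during the reproductive cycle of Anopheles mosquitoes, averaged 0.566% ± 0.0664 on AGO1 and 3.45% ± 0.104 in small RNA (log2 ratio -2.61 ± 0.12 SE), over 4 peaks at 2 loci. With all copied and letter-sharing precursors left out, 39 were higher and 21 lower. The part of multiple mapping in these ratios was not tested.

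A group of 9 precursors was called lower with no AGO1 count at all, namely miR-286b, miR-1891, miR-375, miR-309a, iab-4, miR-282, miR-137, miR-315 and miR-2944b. They passed the filter on low counts through small RNA reads alone, and 7 of the 9 have no CLIP-seq peak under their name at either time. Against a floor of 3 counts over the 3 libraries, the AGO1 share of miR-286b was at least 16.9-fold lower than its pooled small RNA share of 0.0681% (0.0294%, 0.0730% and 0.109% by library). For miR-1891 it was at least 9.03-fold lower, for miR-375 at least 5.0-fold, for miR-309a at least 2.90-fold and for the Hox-cluster miRNA iab-4 at least 2.65-fold. The bounds of miR-282, miR-137 and miR-315 were at least 1.55-, 1.28- and 1.28-fold. miR-2944b was under the floor in small RNA too, so no fold is given. Reads of miR-309a in small RNA were 1.14 to 1.21 times those of miR-309b-3p, and with these letters summed miR-309 was not called (log2 ratio -1.71 ± 0.99 SE, edgeR adjusted p = 0.146). If the same small RNA reads were counted for both letters, this summed ratio is too low. The calls of miR-137, miR-315 and miR-2944b were lost with DESeq2 on library totals. The calls of miR-375, miR-309a and miR-2944b were lost when any 1 of the AGO1 libraries was left out (adjusted p 0.0548 to 0.0987). The 9 precursors that were not tested were miR-193, miR-219, miR-2765, miR-285, miR-286a, miR-2942, miR-2943, miR-2944a and miR-993.

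Among miRNA genes that lie together in a cluster and may be cut from 1 transcript, the ratios ran far apart in some clusters but not in all. The cluster of miR-275 and miR-305 lies on supercontig 1.24 of the AaegL3 build. The main peak of miR-275 is at 486590 to 486615 and that of miR-305 at 495600 to 495626, both on the plus strand. Together they held 23.6% of AGO1 counts and 3.55% of small RNA reads, yet the log2 ratio was 4.61 for miR-305 and 1.34 for miR-275. miR-277 and miR-34 lie together on supercontig 1.265, with log2 ratios of 1.19 ± 0.18 SE for miR-277 and 4.14 for miR-34. The counted peak of miR-317, often grouped with them in flies, is on another supercontig. miR-277, which acts on insulin-like peptides and lipids in Ae. aegypti and enters AGO2 in Drosophila, averaged 0.824% ± 0.0858 on AGO1 and 0.361% ± 0.0547 in small RNA. Its direction turned with TMM (-0.35) and with DESeq2's size factors (-0.54).

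The let-7 complex, the miRNAs of developmental timing, split likewise. miR-125 averaged 2.76% ± 0.248 on AGO1 and 0.199% ± 0.0221 in small RNA (log2 ratio 3.79 ± 0.14 SE), higher under all 4 scalings. let-7 averaged 1.09% ± 0.182 on AGO1 and 0.540% ± 0.155 in small RNA (log2 ratio 1.01 ± 0.24 SE), a direction that turned to -0.47 with TMM. miR-100 averaged 0.407% ± 0.101 on AGO1 and 1.41% ± 0.611 in small RNA (log2 ratio -1.78 ± 0.35 SE). It was lower on plain shares and, as the other scalings lower the ratios, under all 4. In the miR-12 cluster both listed members in the tables were higher, beside 50.6% of all tested. The peak of miR-1889, also higher (log2 ratio 2.56 ± 0.23 SE), lies between theirs on the same strand. miR-12 averaged 2.18% ± 0.499 on AGO1 and 0.224% ± 0.0331 in small RNA (log2 ratio 3.28 ± 0.22 SE). miR-283 had a log2 ratio of 4.03 ± 0.50 SE, with 166, 145 and 364 AGO1 counts, the third library being highest. No test of the difference between members of a cluster was run.

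The miRNAs listed as K-box had 4 of 8 tested members higher and 4 lower, against 50.6% and 36.7% of all tested. The seed of the K-box family matches a motif in messenger RNAs of the Notch pathway in Drosophila. No sequences were at hand, so the seeds of the listed miRNAs, that of miR-2945 among them, were not checked. miR-308, miR-2a, miR-2945 and miR-13 were higher, and miR-11, miR-2b, miR-2c and miR-2944b were lower, miR-2944b with no AGO1 count and a direction fixed by the filter. miR-2a averaged 2.15% ± 0.161 on AGO1 and 0.220% ± 0.0203 in small RNA (log2 ratio 3.29 ± 0.14 SE). miR-2c averaged 0.0379% ± 0.0169 on AGO1 and 0.221% ± 0.0211 in small RNA (log2 ratio -2.52 ± 0.31 SE). In small RNA the reads of miR-2b and miR-2c were 1.02 to 1.03 times those of miR-2a-3p in every library, while the AGO1 counts of the 3 miRNAs differed. With the letters summed, miR-2 averaged 2.26% ± 0.188 on AGO1 and 0.662% ± 0.0626 in small RNA (log2 ratio 1.77 ± 0.12 SE), so the low values of miR-2b and miR-2c cannot be told apart from how reads were assigned. If the same small RNA reads were counted for each letter, the summed small RNA share is too high and this ratio too low. That was not tested.

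Of the 11 miRNAs listed for blood meal, fat body and metabolism, 6 were higher on AGO1, 4 lower and 1 was not called, close to the 50.6% higher and 36.7% lower of all tested. Their median log2 ratio was 1.07, beside 0.87 for all tested. The higher ones were miR-1890, miR-305, miR-33, miR-275, miR-277 and miR-278, and of these only miR-1890, miR-305 and miR-33 were higher under all 4 scalings. miR-33, whose gene lies within that of the lipid regulator SREBP in flies and vertebrates, averaged 0.313% ± 0.0301 on AGO1 and 0.0179% ± 0.00326 in small RNA. miR-8, miR-276, miR-14 and miR-375 were lower on plain shares, and so under all 4. Of these, miR-375 had no AGO1 count and entered through small RNA reads alone. Of the mosquito-specific miRNAs, 4 of 9 tested were higher (miR-1890, miR-1175, miR-2945 and miR-1889) and 3 were lower (miR-1891, miR-2941 and miR-2940), again near 50.6% and 36.7% of all tested. Here miR-1175 passed the filter on low counts only with its AGO1 libraries, and miR-1891 had no AGO1 count. miR-2940 averaged 0.604% ± 0.101 on AGO1 and 2.26% ± 0.652 in small RNA.

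miRNAs of other tissues were present in both assays. The muscle miRNAs miR-1 and miR-133 were both higher on AGO1, beside 50.6% of all tested. They summed to 2.81% to 3.02% of AGO1 counts and 0.107% to 0.119% of small RNA reads. miR-1 alone took 2.91%, 2.70% and 2.83% on AGO1, against 0.0941%, 0.101% and 0.103% in small RNA (log2 ratio 4.82 ± 0.12 SE). miR-133 had 33, 22 and 9 AGO1 counts (log2 ratio 2.67 ± 0.45 SE). In bulk tissue, more muscle cells and more of a miRNA per cell cannot be told apart, and the part of non-fat cells in these ratios was not tested. Of the neural list, 5 of 11 tested were higher (miR-7, miR-124, miR-210, miR-927 and miR-190) and 3 lower, near the 50.6% and 36.7% of all tested, and the call of miR-190 changed with the scaling. The median log2 ratio of the list was 2.32, beside 0.87 for all tested. However, miR-124, miR-210 and miR-927, and the uncalled miR-932, passed the filter on low counts only with their AGO1 libraries. The filter thus favoured their direction and shaped this median. The median is itself the value of miR-932, which had 0, 1 and 1 AGO1 counts. miR-210 had 7, 1 and 4 AGO1 counts and miR-927 had 3, 1 and 2. On the lower side, miR-137 and miR-315 had no AGO1 count and entered through small RNA reads alone. The neural marker miR-124 held at most 11 AGO1 counts in any library.

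Of the ovary and embryo list, 2 of 10 tested were higher (miR-92a and miR-2945), 5 were lower and 3 were not called, beside 50.6% higher and 36.7% lower of all tested. Of the 5 lower, miR-286b, miR-309a and miR-2944b had no AGO1 count and entered through small RNA reads alone, and 3 of the 10 had copies or shared reads. The ovary markers miR-989, miR-309a and miR-286b summed to 0.0476%, 0.0964% and 0.318% of AGO1 counts, against 0.171%, 0.295% and 0.572% of small RNA reads. All AGO1 counts in that sum were of miR-989, and miR-309a and miR-286b were at 0. miR-92a rests on 1 library, with 61, 3 and 3 AGO1 counts. The midgut markers miR-281, miR-1174 and miR-1175 summed to 0.453% to 0.603% of AGO1 counts and 0.549% to 1.20% of small RNA reads. Of the midgut list of 5, 2 were higher, 2 lower and 1 was not called, near 50.6% and 36.7% of all tested. Its higher members included miR-1175, which passed the filter on low counts only with its AGO1 libraries. Its lower members included miR-375, with no AGO1 count. Of the miR-9 group, 3 of 5 were higher on plain shares (miR-79, miR-9b and miR-306), miR-9a was lower and miR-9c was not called, again near those shares. miR-306 had a log2 ratio of 0.93 ± 0.14 SE on plain shares, and with TMM it was called the other way (-0.57, edgeR adjusted p = 0.00587). miR-9b averaged 0.394% ± 0.0489 on AGO1 and 0.0603% ± 0.00554 in small RNA (log2 ratio 2.71 ± 0.18 SE). Among miRNAs listed with the miR-279 seed, also not checked, miR-279 (log2 ratio -1.35 ± 0.30 SE) and miR-286b were lower. In that list miR-996 was 0.87 ± 0.17 SE higher, turning to -0.65 with TMM.

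Among the precursors in none of these groups, miR-316 averaged 0.479% ± 0.107 on AGO1 and 0.0409% ± 0.00211 in small RNA (log2 ratio 3.55 ± 0.22 SE). miR-263b, with 25, 9 and 11 AGO1 counts, had a log2 ratio of 3.61 ± 0.40 SE. Both were higher on AGO1 under all 4 scalings. miR-970 was lower on plain shares, and so under all 4, with 0.119% ± 0.0291 on AGO1 and 0.218% ± 0.0118 in small RNA (log2 ratio -0.86 ± 0.22 SE). miR-998 had 126, 53 and 91 AGO1 counts and miR-981 had 6, 2 and 3. Both were higher on plain shares, with log2 ratios of 2.20 ± 0.34 SE for miR-998 and 1.64 ± 0.40 SE for miR-981, and their calls changed with the scaling. miR-999 and miR-87 had log2 ratios of 0.27 ± 0.19 SE and 0.35 ± 0.39 SE and were not called on plain shares, nor were miR-929, miR-932, miR-989, miR-1000, miR-1174, miR-2946, miR-309b and miR-9c.

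For 20 precursors both arms had counts in both tables, and here the arm could be compared independently of the totals, since scaling cancels within a precursor. The treatment of reads that fit several places need not cancel between arms, which bears on miR-276 and miR-2a. CLIP-seq peaks were given an arm by their position on the strand. limma's test of the log2 ratio of 5p to 3p counts called 18 of 20 (90%). The arm that was the less abundant one in small RNA was even scarcer on AGO1 for 11 precursors (55%) and less scarce for 7 (35%). For 17 of the 20 the same arm led in both assays.

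miR-305-3p made up 0.0483%, 0.0550% and 0.0471% of miR-305 counts on AGO1, 2 counts in each library, and averaged 19.6% ± 4.91 of miR-305 reads in small RNA. This was a 383-fold change of the arm ratio (limma adjusted p = 2.94e-07). For miR-8, the 5p arm averaged 0.433% ± 0.0851 on AGO1 and 2.64% ± 0.366 in small RNA. bantam-5p averaged 1.15% ± 0.420 on AGO1 and 6.94% ± 1.35 in small RNA, miR-11-5p 1.76% ± 1.19 and 10.3% ± 1.86, and miR-34-3p 4.31% ± 0.513 and 10.4% ± 0.581 (SD, n = 3 each). For miR-275-5p, 1, 3 and 1 AGO1 counts gave 0.0996% ± 0.0812 on AGO1, against 1.84% ± 0.761 in small RNA. In each of these precursors the leading arm held a larger part of the counts on AGO1 than in small RNA. The calls of miR-2945, miR-79, miR-1175 and miR-980 rest on 0 to 3 counts of the minor arm per AGO1 library, and each was lost under at least 1 alternative.

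In 7 precursors the arm that was minor in small RNA held a larger part on AGO1. miR-308-3p made up 98.1% ± 1.02 of miR-308 counts on AGO1, 1107, 637 and 735 of them, and 29.8% ± 2.74 of its reads in small RNA (limma adjusted p = 9.16e-06). miR-281-3p made up 44.1% ± 6.44 on AGO1 and 0.558% ± 0.167 in small RNA (adjusted p = 1.32e-06). miR-71-5p made up 52.0% ± 11.7 on AGO1, with one AGO1 library below 50%, and 6.01% ± 0.702 in small RNA. miR-276-5p made up 82.2% ± 3.10 on AGO1 and 0.926% ± 0.0127 in small RNA. Most of these AGO1 counts came from 1 of the 2 miR-276 loci, whose 5p peak held 155, 92 and 100 counts. How reads that fit both loci were counted is not given, so the arm change of miR-276 cannot be told apart from read assignment. miR-252-3p made up 7.61% ± 1.26 on AGO1 and 1.09% ± 0.214 in small RNA. miR-9c-3p and miR-988-5p were higher on AGO1 as well.

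**Figure D4:**
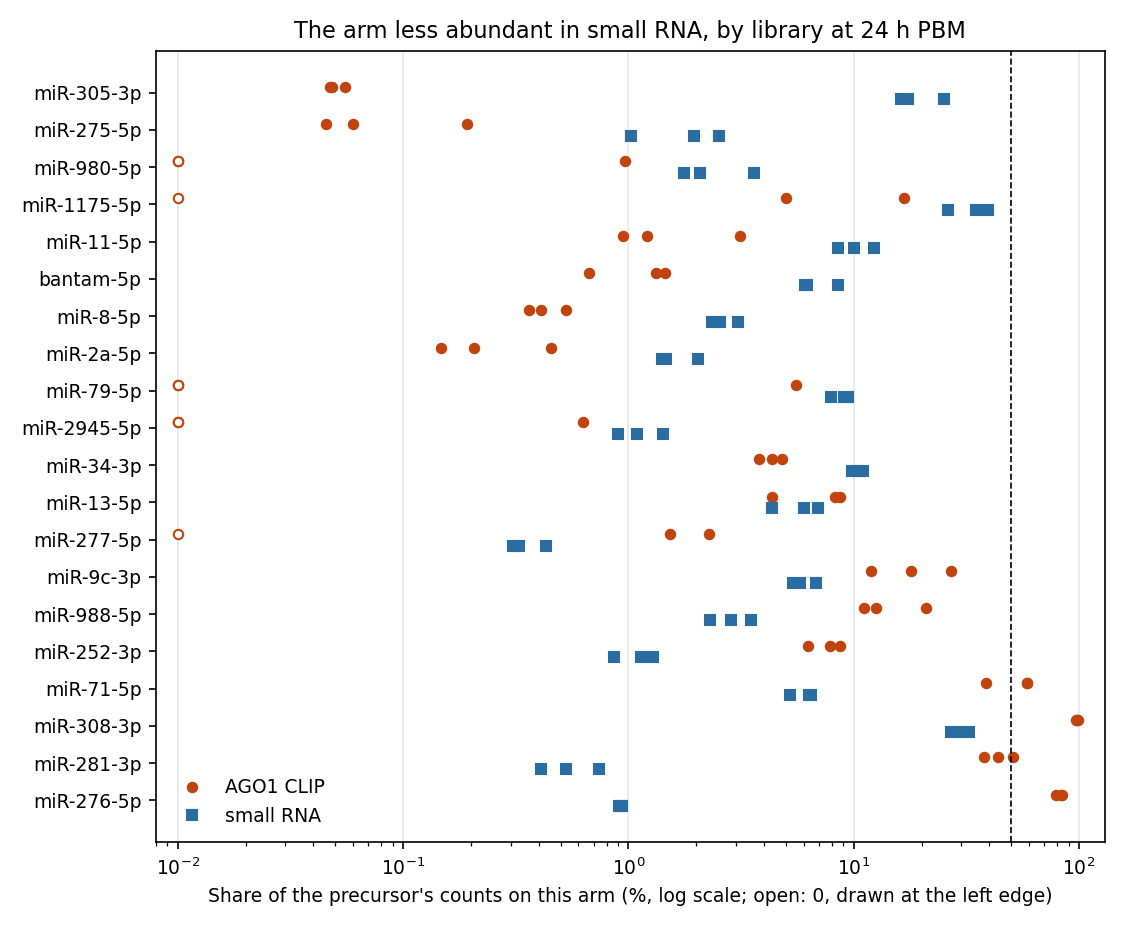
For 20 precursors, the share of the precursor's counts that lay on the arm less abundant in small RNA, in each 24 h PBM library (x axis, %, log scale; circles AGO1 CLIP, squares small RNA, open circles 0 counts; dashed line 50%). miR-305-3p lies far to the left on AGO1, and miR-308-3p and miR-276-5p lie right of the 50% line on AGO1 but left of it in small RNA.

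For most miRNAs the ratio was not shown to differ from that before blood, which does not show that it was the same. A test of the change of the ratio between 24 h PBM and 72 h PE (edgeR interaction of assay and time) called 6 of 83 precursors (7.23%), 1 with a higher ratio at 24 h PBM (1.2%) and 5 with a lower one (6.02%). Blood meal and greater age cannot be told apart in this comparison. miR-305 was the one with a higher ratio. It averaged 16.4% ± 1.99 on AGO1 at 24 h PBM and 2.13% ± 0.564 at 72 h PE, while its small RNA share was 0.672% ± 0.00723 at 24 h PBM and 0.192% ± 0.0129 at 72 h PE (SD, n = 3 each). The ratio of AGO1 to small RNA share was thus 24.4 at 24 h PBM and 11.1 at 72 h PE (change of 1.14 ± 0.24 SE in log2 units, edgeR adjusted p = 0.0121). Its cluster partner miR-275 averaged 7.27% ± 0.353 on AGO1 at 24 h PBM and 2.11% ± 0.222 at 72 h PE, with 2.88% ± 0.298 in small RNA at 24 h PBM and 0.638% ± 0.0741 at 72 h PE. The ratio of miR-275 was 2.53 at 24 h PBM and 3.31 at 72 h PE, a change that did not pass the test (edgeR adjusted p = 0.305).

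The 5 with a lower ratio at 24 h PBM had a higher mean small RNA share at that time and no higher mean share on AGO1. miR-1 averaged 2.81% ± 0.103 on AGO1 at 24 h PBM and 3.93% ± 0.0440 at 72 h PE, while its small RNA share was 0.0994% ± 0.00475 at 24 h PBM and 0.0290% ± 0.00618 at 72 h PE. Its ratio was 28.3 at 24 h PBM and 135 at 72 h PE (change of -2.26 ± 0.19 SE in log2 units, edgeR adjusted p = 1.21e-05). miR-34 averaged 12.9% ± 0.295 on AGO1 at 24 h PBM and 16.01% ± 0.280 at 72 h PE, with 0.731% ± 0.183 in small RNA at 24 h PBM and 0.393% ± 0.0243 at 72 h PE (change of -1.21 ± 0.21 SE in log2 units, edgeR adjusted p = 0.00477). With TMM the change of miR-34 was -0.84 and no longer passed (edgeR adjusted p = 0.168).

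The mosquito miRNA miR-1889 had ratios of 5.89 at 24 h PBM and 18.8 at 72 h PE (change of -1.67 ± 0.30 SE in log2 units, edgeR adjusted p = 0.00477). The change of miR-7 was -2.08 ± 0.49 SE (edgeR adjusted p = 0.0228). It did not pass without the third AGO1 library of 24 h PBM (0.0748) or the second of 72 h PE (0.0513). The change of miR-980 was -0.63 ± 0.16 SE (edgeR adjusted p = 0.0389) and was lost under most alternatives. The ratio of miR-8 was 0.194 at 24 h PBM and 0.225 at 72 h PE (edgeR adjusted p = 0.305), under 1 at both times.

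**Figure D5:**
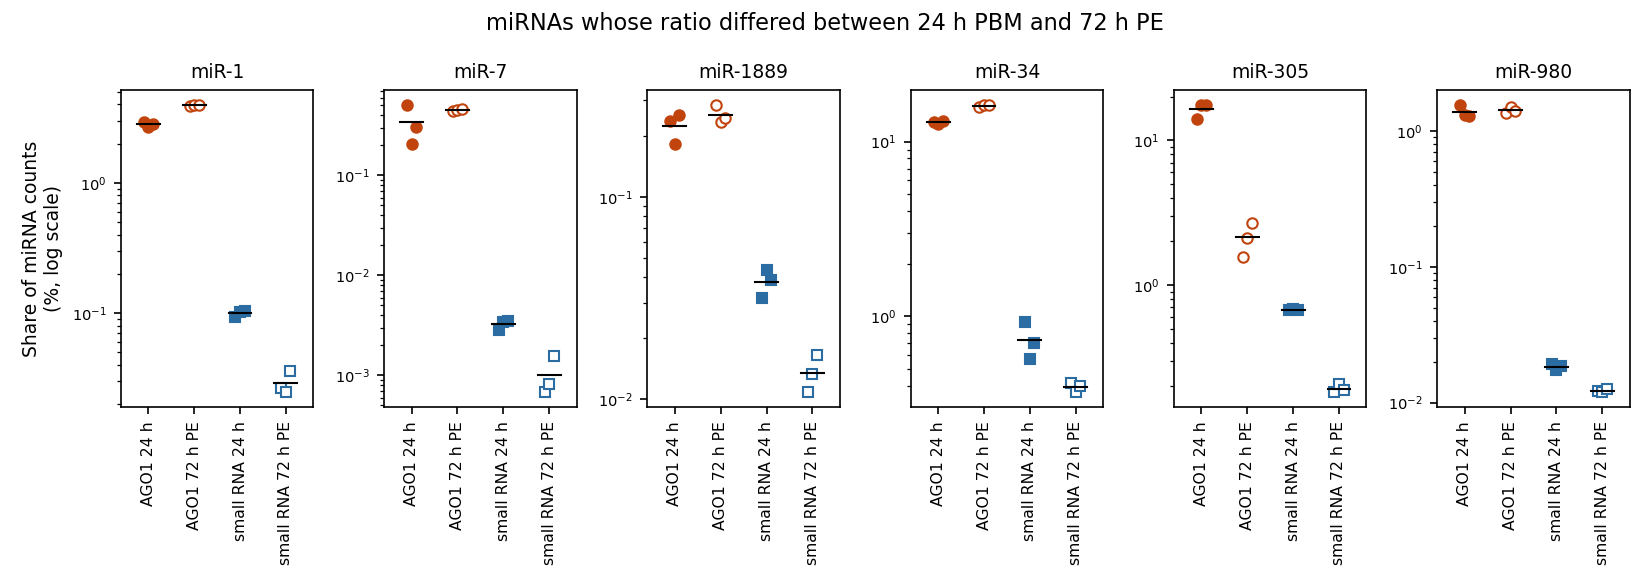
Share of miRNA counts in each library (y axes, %, log scale, a scale per panel; bars mark means of 3 libraries) on AGO1 and in small RNA at 24 h PBM (filled) and 72 h PE (open), for the 6 miRNAs whose ratio changed. miR-305 is higher at 24 h PBM in both assays and most on AGO1, whereas miR-1 is higher at 24 h PBM only in small RNA.

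Across precursors, abundance and AGO1 share were related, though far less closely than libraries of the same assay. Over the 71 precursors with counts in both assays, the log2 mean shares had a Pearson r of 0.588 and a Spearman rho of 0.577. Over 47 precursors with at least 10 counts in every library, pairs of AGO1 libraries had r of 0.958 to 0.982 and pairs of small RNA libraries 0.991 to 0.995, while pairs of 1 library of each assay had 0.405 to 0.437. These are descriptions across precursors, which share libraries and totals and are not independent. CLIP-seq counts include any read in a precursor's peak, while the small RNA table counts annotated mature sequences.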

How the data were processed

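The deposited small RNA table gives raw read counts made by the authors for 124 mature miRNAs of miRBase release 21, and the deposited CLIP-seq table gives counts per peak and library over 1 common set of peaks on AaegL3, which its column explanations call barcodes. Not given in the sources used here are the mapping, the counting of reads with several matches and the peak finding. The submitters' processing notes name R 3.1.2, TopHat2 2.0.14, Bowtie2 2.2.3 and bedtools 2.17.0 with no roles. Another 9 columns of per-sample raw counts, of other times, were not used. Whether peak positions count from 0 or 1 is not stated.

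Here arms and named copies were summed per precursor, and CLIP-seq peaks annotated miRBase_miRNA were summed by name. edgeR 4.0.16 (R 4.3.3) with filterByExpr and robust quasi-likelihood F tests compared the 3 AGO1 CLIP and 3 small RNA libraries of 24 h PBM, with total miRNA counts as library sizes and Benjamini-Hochberg adjustment at 0.05 over all precursors tested. A second edgeR model over 12 libraries tested the change of the ratio from 72 h PE. All adjusted p-values are two-sided and come from edgeR unless limma 3.58.1 (arms, 0.5 added to each count; chosen after seeing the data) or DESeq2 1.42.0 is named. SE are those implied by the F statistic. Single values per library were compared by exact permutation (scipy 1.17.1). Counting intervals are at 95%, and with the floor of 3 counts they cover counting error only. Fits were tested on simulated counts.

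Named miRNAs are the 12 with the largest ratio in each direction among those called without overlap of libraries, the 8 most abundant in each assay, up to 10 with a changed ratio, and members of the lists; others named were chosen after their values were seen. The members and the lists were chosen with earlier results of these data known.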

Additional observations from a re-analysis of the deposited data

Results flagged for a closer look

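The ratio of AGO1 share to small RNA share differed between 24 h PBM and 72 h PE by the edgeR test of that difference for 6 of 83 miRNAs. The log2 change, 24 h PBM over 72 h PE, was 1.14 for miR-305, -2.26 for miR-1, -2.08 for miR-7, -1.67 for miR-1889, -1.21 for miR-34 and -0.63 for miR-980. The causes of these changes were not tested, and blood meal and age cannot be told apart.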

How the results depend on the processing

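With TMM the log2 ratio at 24 h PBM reversed for let-7 (-0.47), miR-184 (-0.99), miR-275 (-0.16), miR-277 (-0.35), miR-278 (-0.43), miR-306 (-0.57) and miR-996 (-0.65). With miR-8 left out of the totals it reversed for let-7 (-0.047), miR-184 (-0.54), miR-306 (-0.13) and miR-996 (-0.19). With DESeq2's own size factors it reversed for let-7 (-0.73), miR-184 (-1.21), miR-275 (-0.39), miR-277 (-0.54), miR-278 (-0.67), miR-306 (-0.81), miR-981 (-0.11), miR-988 (-0.061) and miR-996 (-0.87). The filter on expected AGO1 counts left 42 tested, 20 higher and 18 lower. Leaving out each replicate in turn gave 36 to 40 higher and 17 (without the second small RNA library) to 25 lower at 24 h PBM; without 1 small RNA library only 59 or 60 precursors were tested. For the change of the ratio from 72 h PE, the number lower was 3 with TMM, 1 with the filter on expected counts, 8 with DESeq2 under either set of size factors, 12 with limma voom and 3 to 6 with each replicate left out; TMM moved its median by 0.30. The number called for arms was 14 to 20 with each replicate left out. The call of miR-100 was lost with limma voom (adjusted p = 0.0680), and those of miR-137, miR-315 and miR-2944b with DESeq2 on library totals. Those of miR-71 and miR-281 were lost with limma voom and with any 1 of several libraries left out, and those of miR-92b and miR-957 without the first or the second AGO1 library. Counting peaks in place of counts, 0.422% of peaks with counts at 24 h PBM were miRNA peaks. The causes of these reversals, lost calls and moved counts were not tested.

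With the replicate number as a block, 39 were higher and 26 lower, and the change of the ratio had 1 higher and 4 lower. The block ended the calls of miR-137 (adjusted p = 0.0659), miR-315 (0.0683), miR-2944b (0.102), miR-71 (0.109) and miR-981 (0.0698). AGO1 and small RNA libraries of 1 number had correlated deviations of 0.46, -0.18 and 0.64. The first AGO1 library had -0.60 with the third small RNA library, and the third AGO1 library had -0.58 with the first. The second AGO1 library correlated best with another number (0.15). These values do not settle whether libraries of 1 number are pairs, and the main fit did not take them as pairs.

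Depth limits low shares on AGO1: 3 counts over 3 libraries is the floor, and several calls of under-representation rest on 0 to 12 counts.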
